A study of Danio rerio with 6 samples.

Results

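RFX and FoxJ1 proteins are the transcription factors best known for switching on the genes that build cilia. RFX proteins bind DNA through a winged helix and turn on the core machinery of the cilium, including the proteins that carry cargo along it. FoxJ1 is a forkhead protein that turns on the genes of the motile axoneme, such as dynein arms, radial spokes and tektins. Hair cells of the zebrafish ear carry a single true cilium, the kinocilium, beside their stereocilia.

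The genes described here are 7 RFX genes and 2 FoxJ1 genes of the zebrafish, taken by symbol from a deposited table of 31701 genes. They are rfx1a (ENSDARG00000005883), rfx1b (ENSDARG00000075904), rfx2 (ENSDARG00000013575), rfx3 (ENSDARG00000014550), rfx4 (ENSDARG00000026395), rfx5 (ENSDARG00000063258), rfx6 (ENSDARG00000041702), foxj1a (ENSDARG00000101919) and foxj1b (ENSDARG00000088290). All 9 were in the table, each under 1 entry.

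Levels were measured by RNA-seq in 3 samples of GFP-positive hair cells and 3 samples of GFP-negative non-sensory surrounding cells (nsSCs) of the inner ear. Each sample held 1000 cells that were picked singly with a suction pipette from the sensory organs (utricle, saccule and lagena) of several fish. The authors describe collecting both hair cells and nsSCs from each fish, so that the cell types share donors. All fish were adult females of 11 to 13 months of the line Tg(pou4f3:GAP-GFP)s273t, in which the promoter of the hair cell factor gene pou4f3 drives a membrane-bound GFP. Hair cells had to show GFP and a bundle of stereocilia, and nsSCs had to lack both, so that the nsSCs are a mixture defined by what they do not show. Values are RPKM, in which read numbers are divided by transcript length and by the number of mapped reads. They are therefore per length and can be compared between genes. Gene levels are mean ± SD over 3 samples, values of single samples are given in the order of replicates 1, 2 and 3, and a log2 fold change is hair cells over nsSCs on log2(RPKM + 0.1), a scale that understates changes at low RPKM. A gene was called when limma's adjusted p was under 0.05 and the change at least 2-fold on that scale.

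The labels were checked against markers of hair cells and of other cells that the samples could hold. Of 15 hair cell markers 15 were called toward hair cells, and their summed level was 38014 to 38402 RPKM in the hair cell samples and 143 to 148 RPKM in the nsSC samples. This list holds pou4f3, whose promoter drives the GFP by which cells were picked. Most of its genes, such as s100s, had been reported by the authors as enriched in these hair cell samples. Much of this outcome was therefore set in advance. Of 11 markers of supporting and otolith matrix cells, 8 were called toward hair cells and 0 away from them, with sums of 618 to 627 RPKM in hair cell samples and 77.5 to 82.4 RPKM in nsSC samples. All 9 tested leukocyte markers were called lower in hair cells. A gene was tested when its average reached 0.1 RPKM in either cell type. Of the hair cell markers 2, and of the leukocyte markers 4, reached it in only 1 cell type and had to differ. The leukocyte markers summed to 1.82 to 2.99 RPKM in hair cell samples and 148 to 151 RPKM in nsSC samples. Also called lower were 5 of 5 tested entries each for red blood cells, endothelium, connective tissue, muscle and epithelium. Of these, 5 muscle, 4 endothelium and 2 connective tissue entries averaged 0.1 RPKM or more in nsSCs only, so that they had to differ. The red blood cell entries summed to 908 to 987 RPKM in hair cell samples and 20094 to 23842 RPKM in nsSC samples. Of 11 glial markers 2 (18.2%) were called higher and 7 (63.6%) lower in hair cells. Among the 7 lower, 3 averaged 0.1 RPKM or more in nsSCs only and had to differ. The glial markers summed to 375 to 386 RPKM in hair cell samples and 4949 to 5129 RPKM in nsSC samples. The source of blood and glial transcripts in the hair cell samples was not tested. Of 8 neuronal markers 1 (12.5%) was called higher and 3 (37.5%) lower. Over all tested genes 31.0% were called higher and 35.4% lower, so that the neuronal share called lower was near that of all genes. Mitochondrially encoded entries took 14.9 to 15.8% of the summed RPKM in hair cell samples and 52.5 to 53.9% in nsSC samples. Because RPKM are relative to all mapped reads, the values of all other genes depend on this share, and other scalings were therefore tried. Counting error and sequencing depth cannot be read from RPKM rounded to 2 decimals.

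All tested RFX and FoxJ1 genes were on the hair cell side. In 7 of the 9 genes every hair cell sample lay above every nsSC sample, and all 7 were called toward hair cells, whereas rfx4 and rfx6 were below 0.1 RPKM in all 6 samples and were not tested. The filter on low values asked for an average of 0.1 RPKM in either cell type, and all 7 genes reached it in both. The background is broad, since 66.4% of the 22374 tested genes were called in either direction and 31.0% were called higher in hair cells. Hair cell samples lay above nsSC samples without overlap in 42.5% of the tested genes, and the cell types did not overlap in either direction in 85.1%. Among the 15159 genes at or above 0.1 RPKM in both cell types, 35.2% were called higher in hair cells. A lower level in a bulk sample of nsSCs can come from fewer cells that use the gene or from less RNA in each cell, and these cannot be told apart.

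**Figure D1:**
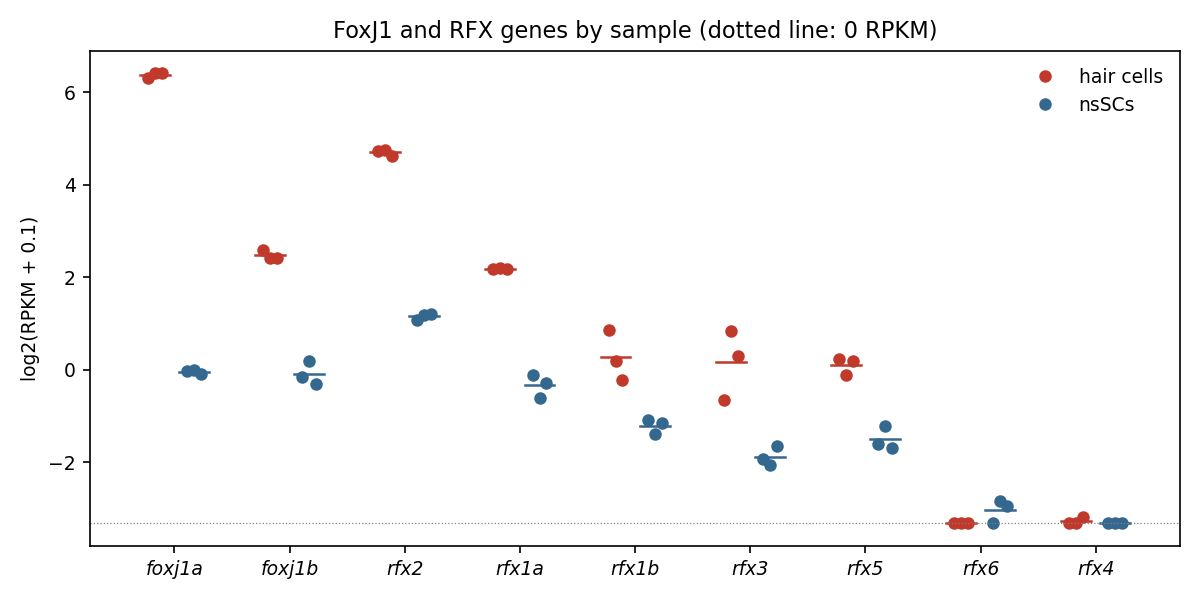
Level of the 9 genes in each sample as log2(RPKM + 0.1), with hair cells left of nsSCs, points for samples and bars for means. foxj1a and rfx2 stand highest in the 3 hair cell samples, and rfx4 and rfx6 lie at or near the line of 0 RPKM in all 6 samples.

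foxj1a was the most abundant of the 9 genes in hair cells and had the largest fold change. It measured 78.54, 84.67 and 84.82 RPKM in the hair cell samples, against 0.88, 0.90 and 0.83 RPKM in the nsSC samples. The 3 values of each cell type lay close together, and the cell types were far apart. Its means of 82.7 ± 3.58 RPKM in hair cells, against 0.870 ± 0.0361 RPKM in nsSCs (SD, n = 3 each) stood 95.03-fold apart. The log2 fold change was 6.41 (standard error 0.08, adjusted p = 3.9e-09 from limma), a size that 401 of the tested genes (1.79%) reached or passed toward hair cells. By mean level foxj1a ranked 1240 of the 31701 genes in hair cells and 14792 in nsSCs.

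Its paralog foxj1b, which encodes the second FoxJ1 protein of the zebrafish, was also higher in hair cells but far less so. It measured 5.94, 5.22 and 5.24 RPKM in the hair cell samples, against 0.79, 1.03 and 0.70 RPKM in the nsSC samples. The means were 5.47 ± 0.410 RPKM in hair cells, against 0.840 ± 0.171 RPKM in nsSCs (SD, n = 3 each), 6.51-fold apart, and the log2 fold change was 2.58 (standard error 0.16, adjusted p = 4.8e-06 from limma).

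The FoxJ1 pair differed in balance between the cell types. In hair cells foxj1a was at 13.2 to 16.2 times the level of foxj1b, while in nsSCs the ratio was 0.874 to 1.19, on either side of equality. On the log2(RPKM + 0.1) scale the ratio of foxj1a over foxj1b averaged 3.90 ± 0.17 in hair cells and 0.06 ± 0.21 in nsSCs (SD, n = 3 each), a difference of 3.84. The ranges of the cell types did not overlap, and an exact two-sided permutation test gave p = 0.1, the smallest value that 3 samples against 3 allow. foxj1a made up 93.8 ± 0.704% of the summed RPKM of the pair in hair cells and 51.2 ± 4.02% in nsSCs. The sum of the pair was 84.5 to 90.1 RPKM in hair cell samples and 1.53 to 1.93 RPKM in nsSC samples (exact p = 0.1). How reads shared by paralogs were assigned is not given in the sources used here, so that the split between paralogs carries this uncertainty. The nsSC mean was 1.05% of the hair cell mean for foxj1a and 15.4% for foxj1b. For the hair cell markers it was 0.0284 to 5.76%. The part of hair cell RNA in the nsSC ratio was not tested.

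Among the RFX genes, rfx2 led in both cell types. rfx2 encodes a factor that acts in ciliated and sperm-forming cells of vertebrates. It measured 26.56, 26.97 and 24.36 RPKM in the hair cell samples, against 2.01, 2.15 and 2.19 RPKM in the nsSC samples. All hair cell values exceeded all nsSC values by a factor of more than 10. The means of 26.0 ± 1.40 RPKM in hair cells, against 2.12 ± 0.0945 RPKM in nsSCs (SD, n = 3 each) were 12.3-fold apart, and the log2 fold change was 3.56 (standard error 0.08, adjusted p = 4.0e-08 from limma). A change of this size toward hair cells was reached by 1815 of the tested genes (8.11%). rfx2 was the sole gene of the 9 with a mean above 1 RPKM in nsSCs.

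rfx1a and rfx1b are paralogs of each other and orthologs of the mammalian gene Rfx1, whose product acts with Rfx3 in the hair cells of mice. rfx1a measured 4.39, 4.51 and 4.43 RPKM in the hair cell samples, against 0.82, 0.55 and 0.72 RPKM in the nsSC samples. Its hair cell values had the smallest relative spread of the tested RFX and FoxJ1 genes, a coefficient of variation of 1.38%. The log2 fold change was 2.53 (standard error 0.16, adjusted p = 4.8e-06 from limma). rfx1b measured 1.70, 1.04 and 0.76 RPKM in the hair cell samples, against 0.37, 0.28 and 0.35 RPKM in the nsSC samples. Its hair cell samples spread 2.24-fold from lowest to highest and still lay above all nsSC samples. The log2 fold change was 1.49 (standard error 0.28, adjusted p = 0.0019 from limma), with a 95% interval of 0.82 to 2.16 that reaches below a 2-fold change.

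The balance of the rfx1 paralogs also moved toward the a paralog in hair cells, by less than that of the FoxJ1 pair. rfx1a was at 2.58 to 5.83 times the level of rfx1b in hair cells and at 1.96 to 2.22 times in nsSCs. On the log2(RPKM + 0.1) scale this ratio averaged 1.91 ± 0.55 in hair cells and 0.87 ± 0.10 in nsSCs (SD, n = 3 each). The ranges did not overlap, and the exact permutation test again gave p = 0.1.

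rfx3 encodes a factor that mice need for normal nodal and brain cilia, and it was the most variable of the 7 tested genes among the hair cell samples. It measured 0.53, 1.68 and 1.13 RPKM in the hair cell samples, against 0.16, 0.14 and 0.22 RPKM in the nsSC samples. The lowest hair cell sample was thus 3.17-fold below the highest, and the coefficient of variation was 51.7% in hair cells. The sample lowest in rfx3, hair cell replicate 1, was the one highest in rfx1b. The log2 fold change was 2.04 (standard error 0.38, adjusted p = 0.0017 from limma), with a 95% interval of 1.14 to 2.93.

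rfx5 differs from the others in its known role, since in mammals RFX5 forms a complex with RFXAP and RFXANK that binds the promoters of MHC class II genes. It measured 1.07, 0.82 and 1.03 RPKM in the hair cell samples, against 0.23, 0.33 and 0.21 RPKM in the nsSC samples. Both groups were low and did not overlap. The log2 fold change was 1.60 (standard error 0.19, adjusted p = 0.00016 from limma). With a pseudocount of 1 RPKM in place of 0.1, the log2 fold changes of rfx5, rfx3 and rfx1b were 0.65, 0.81 and 0.68, each short of 2-fold, so that 4 of the 7 genes were called.

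rfx4 and rfx6 were at or near 0 in both cell types. rfx4, a gene of the developing brain in mice, showed a single value above 0, 0.01 RPKM in hair cell replicate 3, and was listed at 0 in the other 5 samples. rfx6, which mammals need to form islet cells of the pancreas, had a listing of 0 in every hair cell sample and of 0, 0.04 and 0.03 RPKM in the nsSC samples. No fold change is given for either gene.

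**Figure D2:**
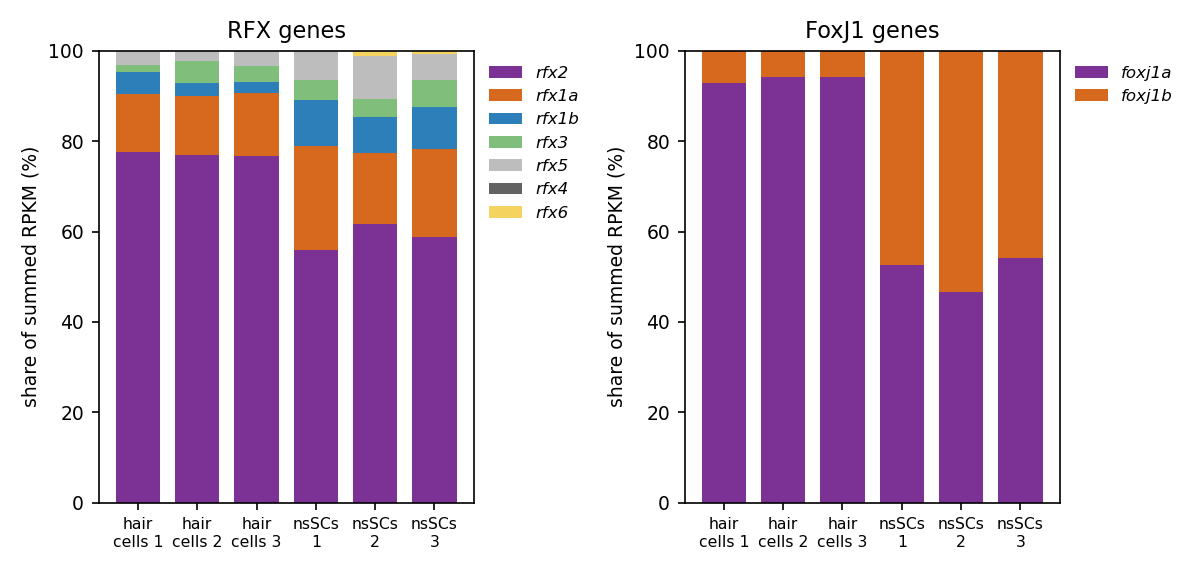
Share of each gene in the summed RPKM of the 7 RFX genes and of the FoxJ1 pair, in percent, with a bar for each sample and hair cells on the left. rfx2 takes 76.8 to 77.5% of the RFX sum in hair cell samples and 56.0 to 61.6% in nsSC samples, and foxj1a takes 93.0 to 94.2% of its pair in hair cell samples and 46.6 to 54.2% in nsSC samples.

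The RFX genes summed to 33.7 ± 1.73 RPKM in hair cells, against 3.60 ± 0.115 RPKM in nsSCs (SD, n = 3 each), 9.35-fold apart (exact permutation p = 0.1). rfx2 alone made up 77.1 ± 0.386% of this sum in hair cells and 58.8 ± 2.81% in nsSCs, and rfx1a made up 13.2 ± 0.646% in hair cells and 19.3 ± 3.54% in nsSCs. The other RFX genes each stayed under 5% of the sum in every hair cell sample. In nsSCs rfx1b took 9.25 ± 1.15% and rfx5 7.17 ± 2.02%.

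Ordered by level in hair cells, foxj1a came first, followed by rfx2, foxj1b and rfx1a, with no overlap between the samples of neighbours in this order. rfx1b, rfx3 and rfx5 followed at 1.17 ± 0.483, 1.11 ± 0.575 and 0.973 ± 0.134 RPKM (SD, n = 3 each) and did not differ beyond their spread. In nsSCs rfx2 came first without overlap. foxj1a, foxj1b and rfx1a followed between 0.55 and 1.03 RPKM, where foxj1b overlapped both of the others. rfx1b, rfx5 and rfx3 came last, between 0.14 and 0.37 RPKM, and each overlapped its neighbour in the order.

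In most of these genes the nsSC mean was a larger part of the hair cell mean than in the hair cell markers. Most of those markers had been reported as enriched in these hair cell samples, so that their low shares were largely set in advance. Across the 15 hair cell markers the nsSC mean was 0.0284 to 5.76% of the hair cell mean (median 0.477%), with atoh1a highest. foxj1a at 1.05% lay inside this range. rfx2 at 8.15%, foxj1b at 15.4%, rfx3 at 15.6%, rfx1a at 15.7%, rfx5 at 26.4% and rfx1b at 28.6% lay above it. Such levels were not particular to these genes. The median was 7.95% over the supporting cell markers (range 2.03 to 68.3%). Among cilium genes described below it was 19.4% for transport and transition zone genes and 2.05% for motile axoneme genes. These are ratios of means, given as a description, and the part of RNA from other cells in them was not tested.

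**Figure D3:**
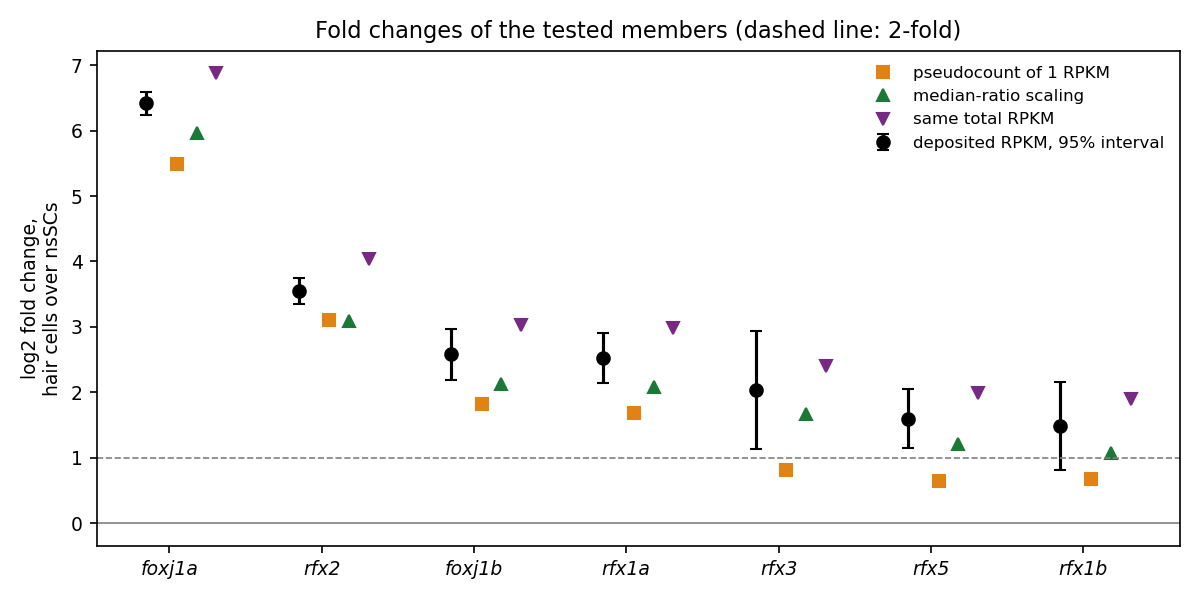
Log2 fold change of the 7 tested genes, hair cells over nsSCs, with 95% intervals from limma for the deposited RPKM and the estimates with a pseudocount of 1 RPKM and under 2 other scalings of the samples. All values are above 0, and those of rfx3, rfx5 and rfx1b with a pseudocount of 1 RPKM fall below the dashed line of a 2-fold change.

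Rescaling the samples moved all fold changes together and changed no call of the 7 genes. Median-ratio scaling shifted the median log2 fold change of all tested genes by -0.45 and rescaling to the same total RPKM shifted it by 0.46. Across the alternatives tried, the log2 fold change ran from 5.48 to 6.88 for foxj1a, from 3.09 to 4.03 for rfx2, from 1.82 to 3.04 for foxj1b and from 1.68 to 2.98 for rfx1a. For rfx3, rfx5 and rfx1b it ran from 0.81 to 2.49, from 0.65 to 1.99 and from 0.68 to 1.89. The supporting cell markers were also higher in the hair cell samples. Rescaling moves them with these genes by construction, and their part in the result was not tested.

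The genes nearest to foxj1a over the 6 samples, by Euclidean distance on log2(RPKM + 0.1), were DGKI, ankrd24 and lrrc18b. DGKI, a diacylglycerol kinase gene, lay at a distance of 0.304 with means of 90.3 RPKM in hair cells, against 0.877 RPKM in nsSCs. ankrd24, an ankyrin repeat gene, lay at 0.445 and lrrc18b, a leucine-rich repeat gene, at 0.497. Nearest to rfx2 were ugt8, which encodes an enzyme of galactosylceramide synthesis, at a distance of 0.289, rpain at 0.363 and the actin-binding protein gene cap2 at 0.395. The means of ugt8 were 25.7 RPKM in hair cells, against 2.30 RPKM in nsSCs. With 6 samples in 2 groups such likeness says little beyond a shared level in each cell type.

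None of the other FoxJ and RFX genes in the list was called on the deposited RPKM. foxj2, a broadly used forkhead gene, averaged 15.3 ± 1.36 RPKM in hair cells, against 9.07 ± 0.497 RPKM in nsSCs (SD, n = 3 each), with a log2 fold change of 0.74 (95% interval 0.53 to 0.96) that was short of 2-fold, although every hair cell sample lay above every nsSC sample. foxj3 averaged 2.37 ± 0.210 RPKM in hair cells, against 2.69 ± 0.315 RPKM in nsSCs, with a log2 fold change of -0.17 (adjusted p = 0.27 from limma). rfx7 measured 1.60, 1.94 and 2.51 RPKM in the hair cell samples, against 0.72, 2.15 and 1.30 RPKM in the nsSC samples, with overlap. When the samples were rescaled to the same total RPKM, foxj2 and rfx7 were called higher in hair cells (log2 fold changes of 1.23 and 1.06) and foxj3 turned to 0.30 without a call.

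The partners of rfx5 went different ways. rfxank, an ankyrin repeat subunit of the RFX5 complex in mammals, measured 0.85, 1.48 and 1.07 RPKM in the hair cell samples, against 15.90, 17.68 and 15.17 RPKM in the nsSC samples. It was called lower in hair cells, at a log2 fold change of -3.76 (limma's standard error 0.19, adjusted p = 1.6e-06 from limma), opposite in sign to that of rfx5. rfxap, the gene of the other subunit, averaged 20.2 ± 0.926 RPKM in hair cells, against 14.7 ± 0.955 RPKM in nsSCs (SD, n = 3 each). Its log2 fold change of 0.46 was short of 2-fold and turned to -0.02 under median-ratio scaling. rfxap thus stood at 13.7 to 22.7 times the level of rfxank in hair cells and at 0.850 to 0.972 times in nsSCs.

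**Figure D4:**
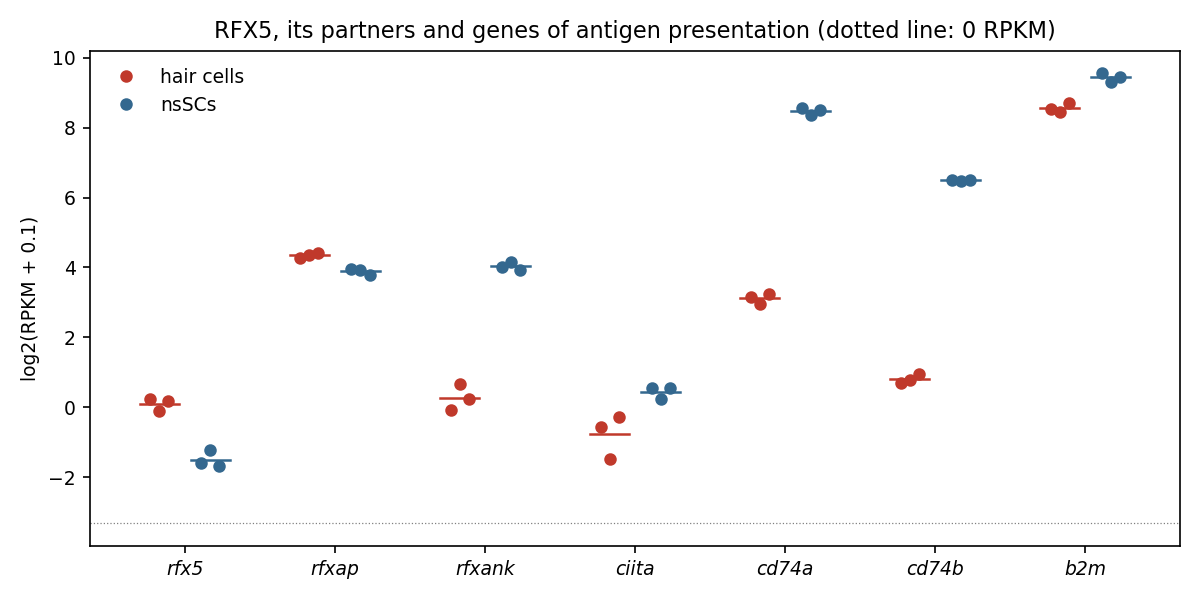
Level of rfx5, its partner genes and genes of antigen presentation in each sample as log2(RPKM + 0.1), with hair cells left of nsSCs, points for samples and bars for means. rfx5 lies higher in the hair cell samples, while rfxank, ciita, cd74a, cd74b and b2m lie higher in the nsSC samples.

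The coactivator gene ciita, the master switch of MHC class II genes in mammals, measured 0.58, 0.26 and 0.73 RPKM in the hair cell samples, against 1.35, 1.07 and 1.36 RPKM in the nsSC samples. It was called lower in hair cells (log2 fold change -1.20, adjusted p = 0.0096 from limma). The call was lost without hair cell replicate 2 (log2 fold change -0.85), with a pseudocount of 1 RPKM (-0.58) and with the same total RPKM (-0.77). In this list of 11 symbols of relatives and partners, 7 were analysed, of which 0 were called higher and 2 (28.6%) lower in hair cells, beside 31.0% and 35.4% of all tested genes. All 7 reached the filter in both cell types. Of the 15159 genes that did so, 5336 were called higher and 3168 lower. With the same total RPKM 3 of the 7 were called higher.

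Of the genes of antigen presentation, 8 of 11 entries analysed were tested, 1 (12.5%) was called higher in hair cells and 4 (50%) were called lower, beside the same background of 31.0% and 35.4%. cd74a, the invariant chain of MHC class II molecules, measured 8.72, 7.68 and 9.33 RPKM in the hair cell samples, against 375.67, 331.24 and 367.28 RPKM in the nsSC samples. cd74b likewise averaged 1.66 ± 0.167 RPKM in hair cells, against 90.0 ± 1.49 RPKM in nsSCs (SD, n = 3 each). The class I genes mhc1uka and mhc1lia were the other 2 genes called lower. mhc1lia had a listing of 0 in every hair cell sample, reached the filter in nsSCs only and so had to differ. Of the 7 entries that reached it in both cell types, 1 was called higher and 3 lower. Among all 15159 such genes 5336 were called higher and 3168 lower. The class I gene mhc1uba went the other way and was called higher, at 498 ± 25.04 RPKM in hair cells, against 56.0 ± 0.592 RPKM in nsSCs. b2m, the light chain of class I molecules, averaged 378 ± 34.4 RPKM in hair cells, against 697 ± 60.1 RPKM in nsSCs, a log2 fold change of -0.88 that was not called, and mhc1zba had a log2 fold change of -0.80. Both were called lower in hair cells under median-ratio scaling (-1.36 and -1.28). Class II chain genes other than cd74 were represented by mhc2dab alone, which was listed at 0 in all 6 samples. The 9 tested leukocyte markers, which summed to at most 2.99 RPKM in hair cell samples, were lower there as well, and their part in these values was not tested.

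Among regulators that act beside FoxJ1 and RFX in ciliated cells, gmnc and CCNO were called higher in hair cells and myb was called lower. Of 13 symbols 11 were analysed and 8 tested, so that 25% of the tested genes were called higher and 12.5% lower, beside 31.0% and 35.4% of all tested genes. Each of the 3 called genes reached the filter in only 1 cell type and had to differ, and of the 5 genes that reached it in both, 0 were called. gmnc, which encodes the geminin-like protein GEMC1 that stands upstream of FoxJ1 in multiciliated cells, measured 4.92, 3.95 and 3.13 RPKM in the hair cell samples. Its single nsSC value above 0 was 0.05 RPKM, in replicate 2. CCNO, the gene of cyclin O, which drives the making of extra centrioles in multiciliated cells, averaged 4.71 ± 0.412 RPKM in hair cells and listed at 0 in all 3 nsSC samples. The hair cell samples thus held transcripts of both genes, which are best known from cells with many cilia.

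Of the other regulators of this list none was called higher in hair cells on the deposited RPKM. myb, a regulator of both blood and multiciliated cells, had a listing of 0 in every hair cell sample, against 0.79, 1.14 and 1.52 RPKM in the nsSC samples. foxn4, tp73 and noto likewise had no value above 0 in hair cells, and none of them passed 0.09 RPKM in nsSCs. e2f4, which encodes an E2F factor that works with geminin-like proteins, averaged 4.65 ± 0.531 RPKM in hair cells, against 4.66 ± 0.624 RPKM in nsSCs, with a log2 fold change of -0.00 (95% interval -0.34 to 0.34). e2f5, its relative, averaged 4.37 ± 0.471 RPKM in hair cells, against 2.34 ± 0.254 RPKM in nsSCs, a log2 fold change of 0.87. The E2F partner genes tfdp1a and tfdp1b had log2 fold changes of 0.99 and -0.30. tfdp1a was called higher in hair cells without hair cell replicate 1 (1.02) and without nsSC replicate 3 (1.05). When the samples were rescaled to the same total RPKM, e2f5 and tfdp1a were called higher in hair cells (1.34 and 1.47). gmnn, the gene of geminin, had a log2 fold change of -0.88, and it was called lower in hair cells under median-ratio scaling (-1.34) and without hair cell replicate 1 (-1.03).

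**Figure D5:**
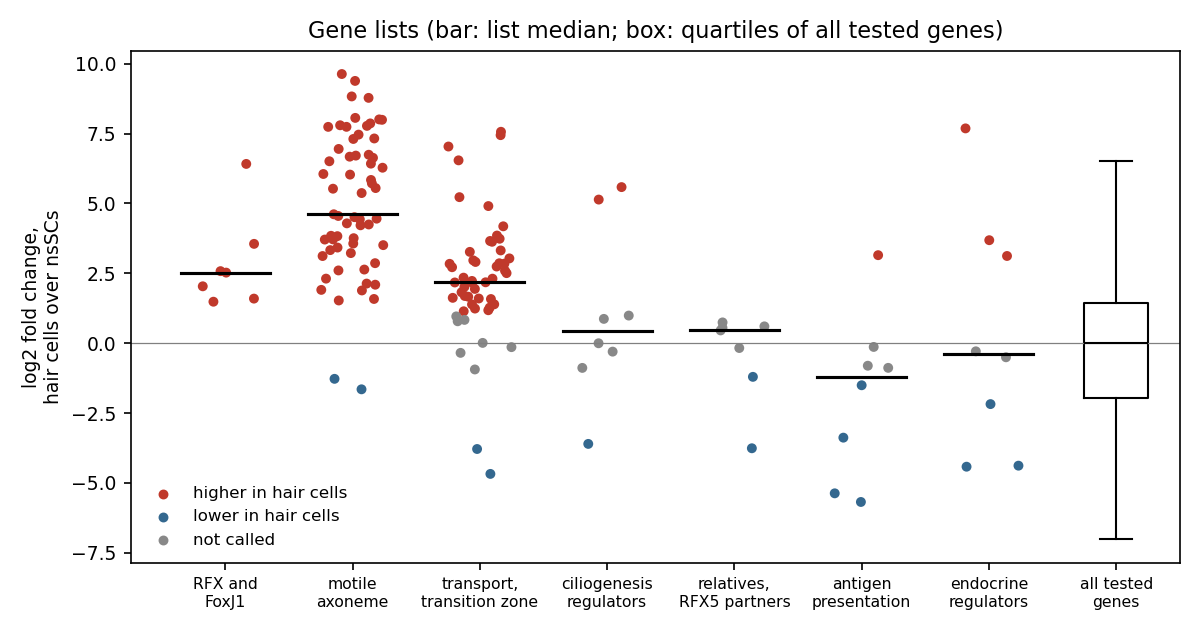
Log2 fold change, hair cells over nsSCs, of the tested genes in each list, with a point for each gene, coloured by call, a bar for the list median and a box for the quartiles of all 22374 tested genes. The median is 4.61 for motile axoneme genes and 2.204 for transport and transition zone genes, against -0.00 for all tested genes. Among genes that reached the filter in both cell types these medians are 3.84, 2.18 and 0.43.

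The genes of the motile axoneme, the class known as FoxJ1 targets, were nearly all higher in hair cells. Of 66 entries 61 were tested, and 59 were called higher and 2 lower in hair cells, with a median log2 fold change of 4.61. In 22 of the 61 the filter was reached in only 1 cell type, so that these had to differ. The other 39 were all called toward hair cells, with a median log2 fold change of 3.84. Of all genes that reached the filter in both cell types 35.2% were called higher, and their median was 0.43. tekt3, a tektin gene of axonemal microtubules, measured 215.30, 214.48 and 206.22 RPKM in the hair cell samples, against 1.91, 1.72 and 2.16 RPKM in the nsSC samples. spag1a, a gene of dynein arm assembly, averaged 229.5 ± 2.00 RPKM in hair cells, against 11.7 ± 1.04 RPKM in nsSCs (SD, n = 3 each). tppp3 and the radial spoke gene RSPH1 had log2 fold changes of 3.12 and 4.25. The 2 entries called lower, dnah5l and the tested one of 2 dnah11 entries (ENSDARG00000094282), were under 0.1 RPKM in every hair cell sample and reached at most 0.38 RPKM in nsSCs, and neither was called with a pseudocount of 1 RPKM.

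The transport and transition zone genes, the class known as RFX targets, also stood higher in hair cells, with a smaller median. Of 52 entries analysed all were tested, and 43 were called higher in hair cells, 2 lower and 7 not, with a median log2 fold change of 2.204. The share called higher was 82.7%, beside 31.0% of all tested genes. Of the 47 that reached the filter in both cell types, 40 (85.1%) were called higher and 0 lower, beside 35.2% called higher among all such genes. ift20, an intraflagellar transport gene, measured 129.83, 115.08 and 126.90 RPKM in the hair cell samples, against 18.29, 17.81 and 14.97 RPKM in the nsSC samples. ift46 averaged 103 ± 0.768 RPKM in hair cells, against 12.5 ± 0.581 RPKM in nsSCs (SD, n = 3 each), and ift74 and the transition zone gene tmem107 had log2 fold changes of 1.60 and 1.24. The transition zone gene tmem237a and 1 of the 2 entries of the intraflagellar transport gene hspb11 ran against the list. Neither had a value above 0 in the hair cell samples, while in nsSC samples this hspb11 entry (ENSDARG00000002204) lay between 2.30 and 2.54 RPKM and tmem237a between 1.01 and 1.57 RPKM. The other hspb11 entry, HSPB11 (ENSDARG00000067777), measured 17.55, 17.30 and 18.56 RPKM in the hair cell samples, against 3.79, 3.30 and 4.11 RPKM in the nsSC samples, and was called higher in hair cells (log2 fold change 2.23). The BBSome gene bbip1 (log2 fold change 0.79) and the transition zone gene b9d2 (-0.34) were among those not called. The difference between the medians of these cilium lists was not tested.

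Of 12 genes that act beside RFX6 in endocrine cells of mammals 8 were tested, with 3 called higher and 3 lower in hair cells. These shares of 37.5% in each direction stand beside 31.0% called higher and 35.4% called lower among all tested genes. In 5 of the 8 the filter was reached in only 1 cell type, so that these had to differ, and of the other 3 genes, 1 (isl1) was called higher and 0 lower. isl1, a LIM homeodomain gene of islets and motor neurons, averaged 58.7 ± 3.17 RPKM in hair cells, against 0.197 ± 0.1002 RPKM in nsSCs (SD, n = 3 each). pdx1, a pancreatic homeodomain gene, measured 1.66, 1.14 and 1.17 RPKM in the hair cell samples, against 0.03 RPKM in nsSC replicate 1 and 0 in nsSC replicates 2 and 3, and insm1b was the other gene called higher. neurod1, a gene of neurons and endocrine cells, had no value above 0.01 RPKM in the hair cell samples and averaged 2.11 ± 0.0971 RPKM in nsSCs. nkx2.2a, a homeodomain gene of islets and neural tube, had a listing of 0 in every hair cell sample and averaged 1.99 ± 0.216 RPKM in nsSCs, and pax6a was the third gene called lower. insm1a and pax6b were not called, with log2 fold changes of -0.29 and -0.50.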

How the data were processed

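Hair cells and nsSCs of adult zebrafish were sequenced as 3 samples each. The authors ran 3 samples per sequencing lane, and their paper does not say which samples shared a lane. A lane difference between the cell types was therefore not tested. The authors amplified the RNA with a SMART-Seq kit, mapped paired-end reads to GRCz10 with CLC Genomics Workbench, named HTSeq count for the estimates, and deposited RPKM values rounded to 2 decimals. Versions of the mapping and counting tools are not given in the sources used here, and no strand setting is stated. Coordinates and sequences were not used here. The table has 35919 rows, of which 31701 hold values.

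The 22374 genes whose average reached 0.1 RPKM in either cell type entered a linear model of log2(RPKM + 0.1) in limma (version 3.58.1, with statmod 1.5.0 under R 4.3.3). Moderation was trended and robust, and p-values were adjusted over all tested genes after Benjamini and Hochberg. The script was first tested on simulated data, in which 200 genes were changed. Sums and paralog ratios were compared by exact two-sided permutation tests. Lists are described by counts and medians and were not tested. The members and lists were chosen with earlier results of these data known.

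Named were the 9 genes, up to 4 genes of each list called in each direction and 2 not called by mean RPKM, and the 3 genes nearest to the top RFX and FoxJ1 genes. Outside this rule, foxj3, rfx7, foxn4, tp73, noto, e2f4, e2f5, gmnn, mhc2dab, HSPB11 and the marker atoh1a were named after their values were seen. The markers pou4f3 and s100s were named for the GFP line and for the report of the authors. Python 3.11.15, numpy 2.4.6, pandas 2.3.3 and matplotlib 3.10.9 made the tables and plots. Hair cells and nsSCs share donors, but which samples share them is not given. Same-numbered samples of the cell types did not deviate together, which 3 samples of each cannot settle. No pairing was assumed in the main model. The labels call all 6 samples biological replicates without saying which fish went into which, so that p-values measure the spread between these samples.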

Additional observations from a re-analysis of the deposited data

How the results depend on the processing

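The 7 RFX and FoxJ1 genes called higher in hair cells stayed at 7 without any single sample and were 4 with a pseudocount of 1 RPKM, where rfx1b, rfx3 and rfx5 fell short of 2-fold. With a filter of 1 RPKM, rfx5 was not tested. With a fold minimum of 4, 5 of the 7 were called, without rfx1b and rfx5. In 101 of 104 combinations of a gene and an alternative that kept the 2-fold minimum the call was the same. The hair cell minus nsSC difference of the summed RFX level, 30.1 RPKM, was 24.2 RPKM with median-ratio scaling, 36.8 RPKM with the same total RPKM and 25.5 RPKM with the same total without mitochondrial genes, and 29.4 to 31.0 RPKM with each sample left out. That of the FoxJ1 pair, 86.4 RPKM, was 72.4, 103.0 and 75.6 RPKM under the same scalings and 85.5 to 88.3 RPKM with each sample left out. The difference in the rfx1a over rfx1b ratio, 1.04 on the log2 scale, was 0.80 to 1.34 with each sample left out. Of the relatives and RFX5 partners, 2 were called lower, and 1 was with a pseudocount of 1 RPKM, a fold minimum of 4 or the same total RPKM, and 1 to 2 with each sample left out, while 0 were called higher, and 3 with no fold minimum or with the same total RPKM. Of the ciliogenesis regulators, 2 were called higher, and 4 with no fold minimum or with the same total RPKM, and 2 to 3 with each sample left out. The cause of these moves was not tested beyond the construction of each alternative. Over all tested genes 46.7% of the calls were toward hair cells, and 37.7%, 55.5% and 39.7% under the 3 scalings. With a pseudocount of 1 RPKM 43.8% of the tested genes were called, beside 66.4%, and with a fold minimum of 4 the share was 42.1%.

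Hair cells and nsSCs share donors, and they share replicate numbers in the labels, but nothing says that equal numbers mark the same fish. Over the tested genes the deviations of same-numbered samples from their cell type means correlated at -0.05, 0.02 and 0.00 for replicates 1, 2 and 3. With a replicate block 7 of the 7 genes were called, and the log2 fold changes of foxj1a and rfx2 were 6.41 and 3.56. The block left all counts of calls in the lists within 1.5 times of those without it. Levels near 0.01 RPKM are at the rounding step of the table, which limits rfx4 and rfx6.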
